A study of Mus musculus with 20 samples.

Results

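Hepatic steroid handling was followed through 9 genes: the steroid 5α-reductase genes Srd5a1, Srd5a2 and Srd5a3, the 17β-hydroxysteroid dehydrogenase genes Hsd17b2, Hsd17b6, Hsd17b11, Hsd17b12 and Hsd17b13, and the 11β-hydroxysteroid dehydrogenase gene Hsd11b1. They were picked by symbol from the 35504 genes of the count table. All 9 had an intact line in that table, as did 23993 genes in all, and all 9 passed the filter on low counts that left 10207 genes for testing.

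The livers came from 20 female mice in a design that crossed diet with activity, and RNA of each mouse was sequenced as 1 library. The vehicle diet groups were sedentary (Con.Sed) or had voluntary wheel running (Con.VWR), and the OC.Sed and OC.VWR groups had the same activities on a diet with oral combined contraceptives (OC). Each group held 5 mice. OC pair an oestrogen with a progestogen, but the compounds and doses, and the strain and age of the mice, are not given in the sources used here. Each replicate was a separate mouse, with library totals between 10883936 and 16134618 counts. The replicate numbers were given here in the order of the samples, so a shared number links no mice between groups.

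Steroid hormones are switched on and off in the tissues that they reach. The 5α-reductases remove a double bond from testosterone, progesterone and glucocorticoids, which strengthens androgens and starts the clearance of the others. The 17β-hydroxysteroid dehydrogenases interconvert the strong hydroxyl and weak keto forms of oestrogens and androgens, although several proteins of that name act mainly on retinoids or fatty acids. In the liver these enzymes stand between steroids arriving from the gut and the circulation.

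On the OC diet these genes moved in both directions. Hsd17b2 and Srd5a1 rose in sedentary and in running mice, Hsd17b6 and Hsd17b13 fell in both, and Hsd17b11 fell in sedentary mice. With both activities averaged, Srd5a2 also fell. Hsd17b12, Hsd11b1 and Srd5a3 did not pass the test in any diet comparison. Running passed the test for none of them on either diet. Sedentary vehicle replicate 2 stood apart from the rest of its group for Hsd17b13, Hsd11b1 and Srd5a3, and values without it are given beside the results that it moved most.

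The comparisons used edgeR's quasi-likelihood test with Benjamini-Hochberg adjustment over the 10207 genes and a threshold of 0.05, and every adjusted p of a gene comes from it unless another tool is named. In sedentary mice 5 of the 9 genes passed, 2 higher and 3 lower on OC, where 16.3% of all genes tested passed (9.11% higher and 7.20% lower). In running mice 4 of the 9 passed, 2 higher and 2 lower, against 13.2% of all genes (7.09% higher and 6.06% lower). Averaged over activity, 6 of 9 passed, 2 higher and 4 lower, against 22.9% (11.9% higher and 11.0% lower). The median log2 fold change of the 9 genes was -0.27 in sedentary and -0.07 in running mice, beside -0.01 and 0.01 over all genes.

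**Figure D1:**
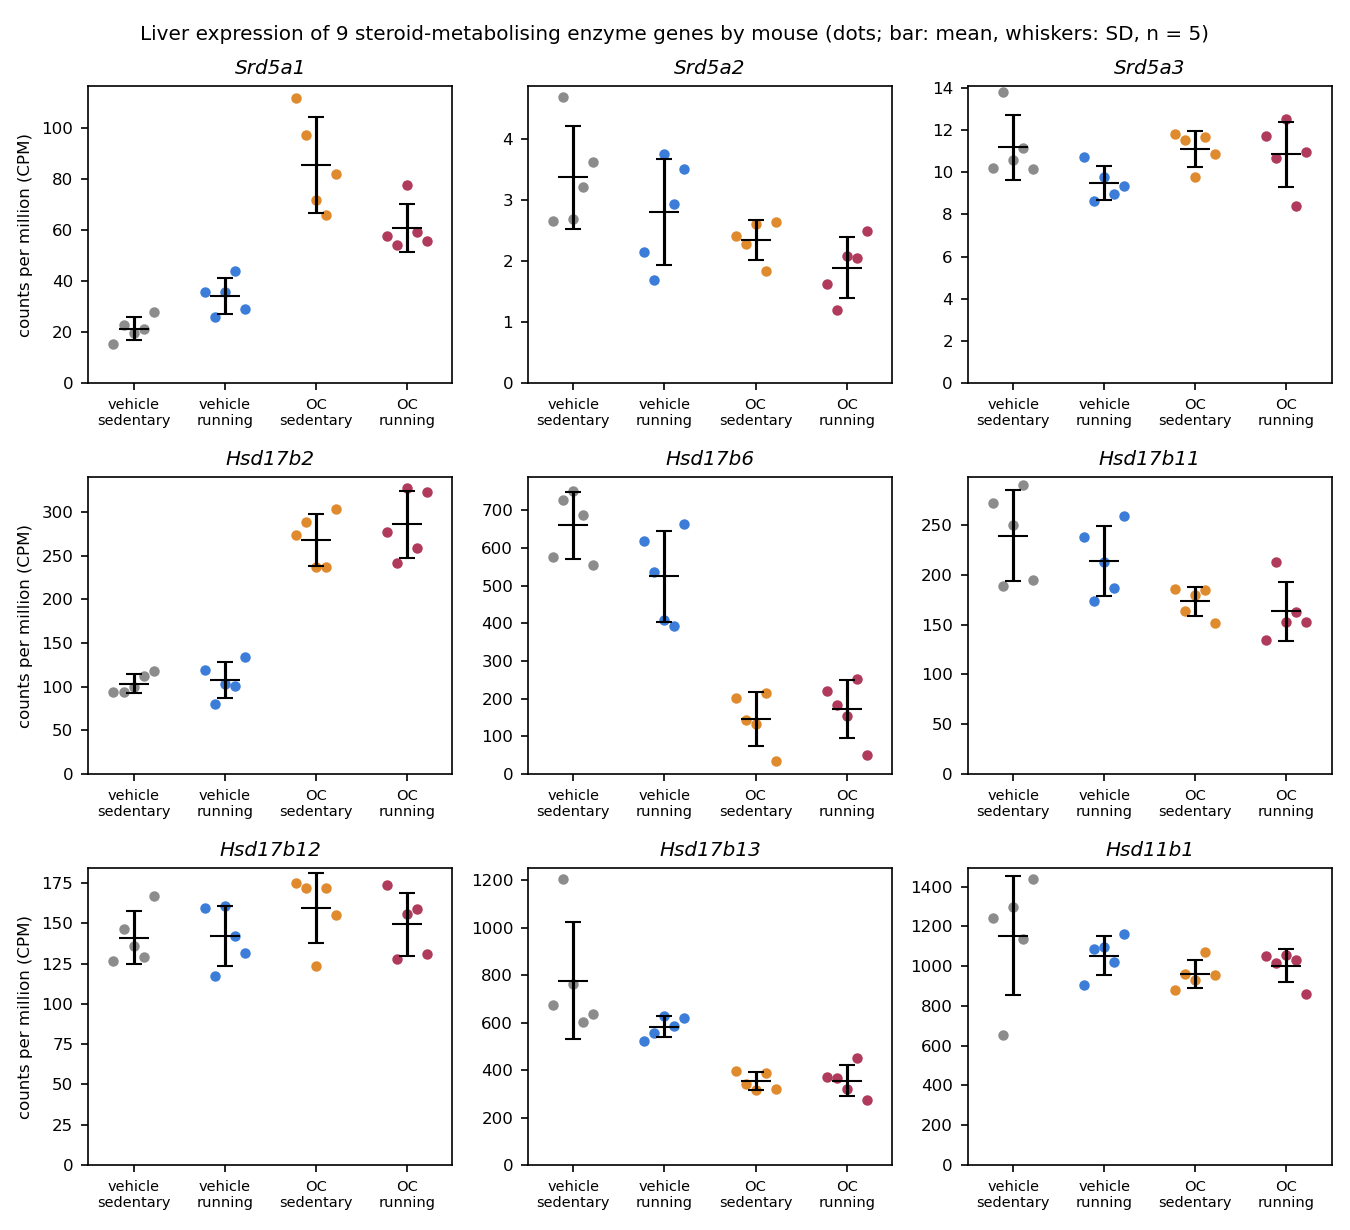
Each panel plots the level of 1 gene in CPM (linear axis from 0), with a dot for every mouse, a bar at the group mean and whiskers of 1 SD (n = 5). Srd5a1 and Hsd17b2 sit higher in both OC groups and Hsd17b6 and Hsd17b13 lower, with no OC mouse inside the range of the vehicle mice of the same activity.

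Levels are in CPM, counts scaled to a common library size with the same scaling factors as the test. Where genes are set beside each other, CPM was divided by the exon length in kb. By this measure Hsd11b1, Hsd17b13 and Hsd17b6 were the most abundant, at means over the 20 libraries of 245 CPM per kb, 239 CPM per kb and 239 CPM per kb. Hsd17b2 followed at 99.4 CPM per kb, Hsd17b12 at 61.5 CPM per kb and Hsd17b11 at 60.4 CPM per kb. The 5α-reductases lay lowest, with Srd5a1 at 17.4 CPM per kb, Srd5a3 at 2.29 CPM per kb and Srd5a2 at 1.62 CPM per kb. These means pool groups that differ by diet. Over the libraries, the range of Hsd17b2 overlapped those of the other 5 of the first 6 genes, and among these 6 only Hsd11b1 and Hsd17b13 lay clear of Hsd17b12 and Hsd17b11. The range of Hsd17b6 reached down into that of Srd5a1, and those of Srd5a3 and Srd5a2 overlapped, so neighbours in this order were not resolved, except that Srd5a1 lay clear of Hsd17b11 and Srd5a3.

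The diet moved this order. In sedentary vehicle mice Hsd17b6 held the highest level per length, 419 CPM per kb, and Hsd17b2 held 53.7 CPM per kb. Both vehicle means of Hsd17b2, 53.7 CPM per kb and in running mice 55.9 CPM per kb, lay below those of Hsd17b12 (58.6 and 59.1 CPM per kb) and Hsd17b11 (73.2 and 65.5 CPM per kb). On OC the sedentary means were 92.4 CPM per kb for Hsd17b6 and 139 CPM per kb for Hsd17b2. Hsd11b1 had the highest mean of the 9 in both OC groups.

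**Figure D2:**
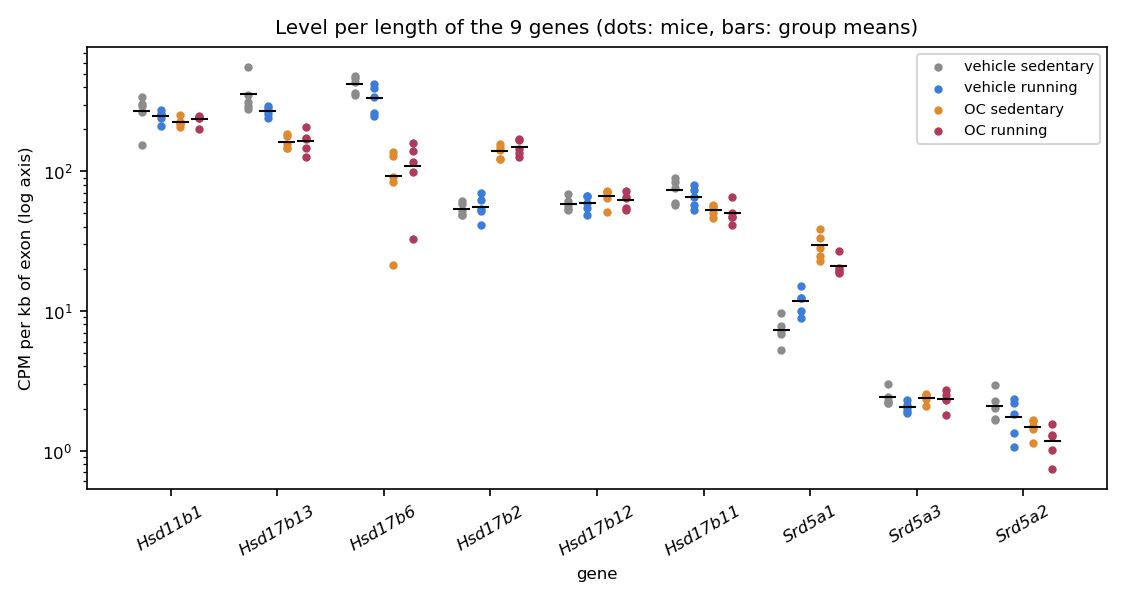
The vertical log axis gives CPM per kb of exon for each mouse (dots) and the group means (bars), with the genes in order of their mean over 20 libraries. The 9 genes span levels from 0.743 CPM per kb (Srd5a2) to 558 CPM per kb (Hsd17b13 in 1 sedentary vehicle mouse). The group means of Hsd17b2 and Hsd17b6 change places between the diets, while the dots of the 2 genes overlap in both OC groups.

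The promoter sequences of the 3 genes below are shown because these genes differed between the diets in opposite directions and differ in base composition. Each is the 250 bases before the transcription start on the coding strand, from RefSeq on GRCm38.p6, written 5′ to 3′ with CpG dinucleotides in capitals. Srd5a1 lies on the minus strand at chr13:69611464-69611713, Hsd17b6 on the minus strand at chr10:128007612-128007861 (the first of 2 starts listed) and Hsd17b13 on the minus strand at chr5:103977389-103977638.
Srd5a1: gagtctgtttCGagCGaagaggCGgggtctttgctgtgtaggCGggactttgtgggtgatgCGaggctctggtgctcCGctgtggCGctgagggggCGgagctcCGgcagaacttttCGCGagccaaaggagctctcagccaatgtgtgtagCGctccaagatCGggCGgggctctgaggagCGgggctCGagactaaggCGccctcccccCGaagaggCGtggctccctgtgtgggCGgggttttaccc
Hsd17b6: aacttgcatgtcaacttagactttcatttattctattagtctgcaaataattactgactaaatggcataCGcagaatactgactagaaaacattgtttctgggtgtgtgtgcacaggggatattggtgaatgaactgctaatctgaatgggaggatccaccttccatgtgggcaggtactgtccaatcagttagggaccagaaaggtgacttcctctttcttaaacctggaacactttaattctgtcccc
Hsd17b13: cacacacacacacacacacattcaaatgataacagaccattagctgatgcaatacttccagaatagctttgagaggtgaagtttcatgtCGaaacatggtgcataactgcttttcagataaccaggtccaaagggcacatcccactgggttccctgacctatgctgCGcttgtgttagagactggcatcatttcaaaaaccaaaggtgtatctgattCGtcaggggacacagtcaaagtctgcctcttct

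The Srd5a1 window held 20 CpG and was 64.8% G and C, whereas that of Hsd17b6 held 1 CpG (41.2% G and C) and that of Hsd17b13 held 3 (44.8%). Over all RefSeq promoters of the same length the medians were 6 CpG and 52.4%. The windows of Hsd17b12 (20 CpG), Srd5a3 (19), Hsd17b11 (13) and Srd5a2 (12) were also CpG-rich, and that of Hsd11b1 held 6. Hsd17b11 and Srd5a2 fell on OC averaged over activity, so a low CpG count was not shared by all the genes that fell. Entries were found for 8 of the 9 genes, all but Hsd17b2, the other gene that rose.

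These 8 genes' windows were searched on both strands for 5 spaced motifs, some of which overlap each other in part. TTCNNNGAA, a STAT-type palindrome, was in none of them and in 7.02% of 32851 promoters. The steroid receptor core ACANNNTGT was in none of them and in 5.84% of promoters. The oestrogen response element palindrome was in 0.0639% of promoters, and the direct repeats DR4 and DR1 of the nuclear receptor site were in 0.0152% and 0.0335%. None of the 5 was found in the windows of the 8 genes, which says only that these letters are not in these 250 bases.

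Srd5a1 (chromosome 13, 69573449 to 69611442, minus strand) encodes the type 1 5α-reductase, the form that is known from liver and skin. The sedentary vehicle mice had 15.2, 22.8, 19.8, 21.0 and 28.0 CPM and the sedentary OC mice 112, 97.4, 71.6, 65.7 and 81.8 CPM. The lowest OC mouse lay above the highest vehicle mouse by more than the whole range of the vehicle group. The mean rose from 21.4 ± 4.64 to 85.7 ± 18.9 CPM (SD, n = 5), 4.01-fold (log2 fold change 2.0, SE 0.17, adjusted p = 1.29e-07). In bulk tissue, fewer cells of a type and less RNA per cell cannot be told apart, here or below.

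In running mice the same gene stood at 35.8, 25.9, 35.8, 44.0 and 29.2 CPM on vehicle and at 57.6, 54.3, 77.6, 59.3 and 55.7 CPM on OC. The groups again did not overlap, but the gap was narrower, and 1 OC mouse (replicate 3) stood above the other 4. The rise was 1.78-fold (log2 fold change 0.83, SE 0.17, adjusted p = 0.00208).

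Running went with opposite differences of Srd5a1 on the 2 diets, neither of which passed the test. On vehicle the running mice were higher, with a log2 fold change of 0.68 (SE 0.17, adjusted p = 0.205, unadjusted p = 0.000709 in edgeR). On OC they were lower, at -0.49 (SE 0.16, adjusted p = 0.683). The interaction, which is the OC effect in running mice minus that in sedentary mice, was -1.17 (95% interval -1.66 to -0.68, adjusted p = 0.141, unadjusted p = 6.91e-05 in edgeR). DESeq2 called both the difference on vehicle (0.68, adjusted p = 0.0436) and the interaction (-1.16, adjusted p = 0.00333), and over the 25 alternatives the adjusted p of the interaction ran from 0.00333 to 0.298.

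The Srd5a1 locus overlaps other genes. Gm17108, a transcript on the same strand, shares 476 bp of exon with it and held 19 to 202 counts per library. Its own log2 fold changes on OC were 2.07 in sedentary mice (SE 0.24, adjusted p = 4.6e-06) and 0.75 in running mice (SE 0.22, adjusted p = 0.029). Nsun2, an RNA methyltransferase gene on the opposite strand, spans the locus without sharing exon sequence, and how the reads were assigned to strands is not given in the sources used here. Averaged over activity Nsun2 had a log2 fold change of 0.20 (SE 0.06, adjusted p = 0.0208).

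Srd5a2 (chromosome 17, 74016955 to 74047916, minus strand), the type 2 enzyme known from prostate and genital tissue, was the least abundant of the 9, with 17 to 56 counts per library. It ranged over 2.65 to 4.70 CPM in sedentary vehicle, 1.83 to 2.64 CPM in sedentary OC, 1.70 to 3.75 CPM in running vehicle and 1.19 to 2.50 CPM in running OC mice. The sedentary ranges met without overlapping and the running ranges overlapped. Neither difference passed alone (log2 fold changes -0.52 and -0.56, adjusted p = 0.129 and 0.117). Averaged over activity its log2 fold change was -0.54 (SE 0.17, adjusted p = 0.0211), and the call was lost when libraries were scaled by their totals alone (-0.42, adjusted p = 0.0667). In GENCODE it shares 144 bp of exon with the transcript CT025731.1, which was not used here.

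Srd5a3 (chromosome 5, 76140271 to 76155504, plus strand) encodes polyprenol reductase, which makes the dolichol that carries sugars for N-glycosylation. Group means lay between 9.49 ± 0.804 CPM in running vehicle mice and 11.2 ± 1.53 CPM in sedentary vehicle mice (SD, n = 5), and all 4 ranges overlapped. The OC difference was -0.01 in sedentary mice (95% interval -0.24 to 0.23) and 0.19 in running mice (-0.04 to 0.43) on the log2 scale. The interval in each case leaves out a change as large as that of Srd5a1.

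Hsd17b2 (chromosome 8, 117701904 to 117759027, plus strand) encodes the enzyme that oxidises estradiol to estrone and testosterone to androstenedione, thereby weakening both. Sedentary vehicle mice had 93.9, 93.4, 99.6, 112 and 118 CPM and sedentary OC mice 274, 289, 237, 237 and 303 CPM. Running vehicle mice had 119, 80.0, 103, 100.4 and 135 CPM and running OC mice 278, 242, 328, 259 and 323 CPM. All 10 OC mice stood above all 10 vehicle mice, and the ranges of the 2 activities overlapped on each diet.

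The mean of Hsd17b2 rose from 103 ± 11.0 to 268 ± 30.2 CPM in sedentary mice (SD, n = 5; 2.59-fold, log2 fold change 1.38, SE 0.13, adjusted p = 3.91e-07). In running mice it rose from 107 ± 20.6 to 286 ± 38.3 CPM (2.66-fold, log2 fold change 1.41, SE 0.13, adjusted p = 1.81e-07). The OC effects at the 2 activities differed by 0.04 on the log2 scale, with a 95% interval of -0.33 to 0.40. Its spread within groups was small, and the averaged value stayed between 1.35 and 1.51 in all 25 alternatives.

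Hsd17b6 (chromosome 10, 127990936 to 128007611, minus strand) encodes an oxidative enzyme related to retinol dehydrogenases, which can turn 3α-androstanediol back to dihydrotestosterone. The sedentary vehicle mice had 577, 729, 753, 688 and 556 CPM and the sedentary OC mice 202, 144, 133, 216 and 33.5 CPM. In running mice the values were 618, 536, 410.3, 394 and 665 CPM on vehicle and 220.2, 182, 155, 252 and 51.5 CPM on OC. No OC mouse reached the lowest vehicle mouse, and replicate 5 was far below the other 4 in both OC groups.

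Hsd17b6 fell 4.54-fold in sedentary mice (log2 fold change -2.18, SE 0.36, adjusted p = 0.000559). In running mice it fell 3.05-fold (log2 fold change -1.61, SE 0.36, adjusted p = 0.00662). Without OC sedentary replicate 5 the first value was -1.93 (adjusted p = 0.00042), and without OC running replicate 5 the second was -1.39 (adjusted p = 0.0105). Those 2 libraries also held the lowest summed hepatocyte markers of their groups, 94719 and 82132 CPM, and the part of this in the result was not tested.

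Hsd17b12 (chromosome 2, 94032689 to 94157964, minus strand) encodes the ketoacyl-CoA reductase of the fatty acid elongation cycle, which can also reduce estrone to estradiol. Its values ran over 127 to 167 CPM in sedentary vehicle, 124 to 175 CPM in sedentary OC, 117 to 161 CPM in running vehicle and 128 to 174 CPM in running OC mice. All groups overlapped. The log2 fold changes on OC were 0.18 in sedentary (95% interval -0.07 to 0.42) and 0.07 in running mice (-0.18 to 0.31). Scaled by library totals alone, the averaged difference of 0.24 was called (adjusted p = 0.0243). That scaling moved the median of all genes to 0.11 in the averaged comparison and the share of higher among called genes to 81.0%, from 51.8%. In sedentary mice the median moved to 0.10 and the share to 82.6% from 55.9%, and in running mice to 0.12 and to 80.6% from 53.9%.

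**Figure D3:**
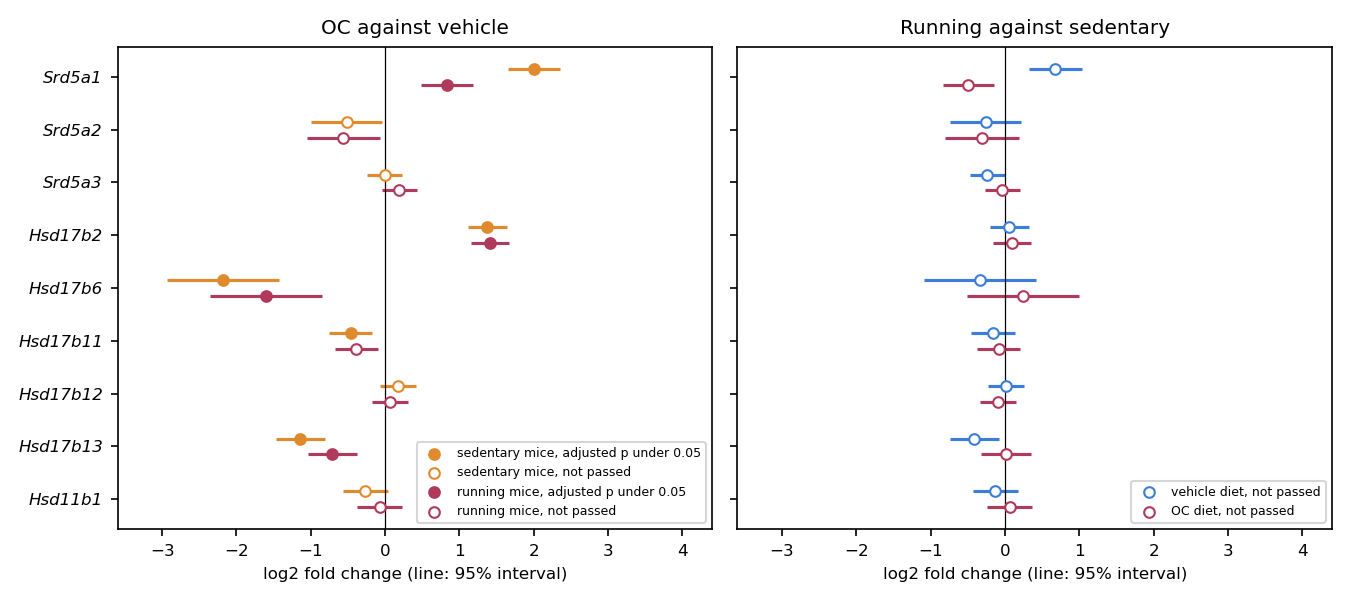
Points give the log2 fold change of each gene and lines the 95% interval, for OC against vehicle (left) and running against sedentary (right). Filled points passed the adjusted p threshold. Srd5a1 is at 2.0 in sedentary and 0.83 in running mice, Hsd17b2 is at 1.38 and 1.41, and no point on the right is filled.

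Hsd17b13 and Hsd17b11 encode related short-chain dehydrogenases that sit on lipid droplets, and they are neighbours on chromosome 5. Hsd17b13 (103955440 to 103977410, minus strand) is a hepatocyte protein with retinol dehydrogenase activity. Sedentary vehicle mice had 673, 1204, 763, 602 and 637 CPM and sedentary OC mice 397, 340.0, 316, 389 and 319 CPM. Running vehicle mice had 524, 555, 629.5, 586 and 618 CPM and running OC mice 371, 367, 318, 451 and 272 CPM. The diets did not overlap at either activity, and the highest value of all belonged to sedentary vehicle replicate 2.

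Hsd17b13 fell 2.20-fold in sedentary mice (log2 fold change -1.14, SE 0.16, adjusted p = 7.37e-05). Without sedentary vehicle replicate 2 the log2 fold change was -0.92 (adjusted p = 3.17e-05). In running mice it fell 1.64-fold (log2 fold change -0.71, SE 0.16, adjusted p = 0.00558). Running on vehicle gave -0.41 (adjusted p = 0.283), and -0.20 without that replicate.

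Hsd17b11 (103989762 to 104021919, minus strand) can oxidise 3α-androstanediol. The values were 272, 189, 249.6, 290.2 and 195 CPM in sedentary vehicle and 186, 164, 179.7, 185 and 152 CPM in sedentary OC mice. In running mice they were 238, 173, 212, 187 and 258 CPM on vehicle and 135, 213, 153, 163 and 153 CPM on OC. The sedentary groups were separated by a narrow gap, and the running groups overlapped.

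The log2 fold change of Hsd17b11 was -0.46 in sedentary mice (SE 0.14, adjusted p = 0.0276) and -0.39 in running mice (SE 0.14, adjusted p = 0.0684). Averaged over activity it fell by 0.43 (SE 0.10, adjusted p = 0.00318). The sedentary call was lost when scaled by library totals alone (adjusted p = 0.0838), and without sedentary vehicle replicate 1, 3 or 4 or sedentary OC replicate 2 or 5 (adjusted p from 0.0511 to 0.0747). The running difference was called by DESeq2 (adjusted p = 0.0429) and without sedentary vehicle replicate 2, running vehicle replicate 2 or running OC replicate 2 (adjusted p = 0.0481, 0.0414 and 0.0163).

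Hsd11b1 (chromosome 1, 193221634 to 193264075, minus strand) encodes the reductase that regenerates active glucocorticoid from its keto form, and liver is a main site of it. The sedentary vehicle mice had 1243, 653, 1298, 1136 and 1437 CPM and the sedentary OC mice 879, 958, 932, 1070.0 and 956 CPM. In running mice the ranges were 904 to 1160.4 CPM on vehicle and 858 to 1054 CPM on OC. The sedentary groups overlapped only through vehicle replicate 2, the lowest of all 20 libraries.

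With all libraries the sedentary difference of Hsd11b1 was -0.27 on the log2 scale (95% interval -0.57 to 0.03, adjusted p = 0.219). Without sedentary vehicle replicate 2 it was -0.42 (SE 0.10, adjusted p = 0.00604), and the averaged difference was -0.24 (adjusted p = 0.00974), from -0.17 (adjusted p = 0.25). Running mice, on their own, gave -0.07 (95% interval -0.37 to 0.23). That library also held the lowest sum of pericentral hepatocyte markers, 1643 CPM against 2342 to 3930 CPM in the other 19, and its part in the result was not tested.

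Running against sedentary gave no call among the 9 genes, on either diet, averaged over diet or as an interaction, and edgeR called 0 of the 10207 genes (0%) in each of these 4 comparisons. At an unadjusted p under 0.05 edgeR had 3 of the 9 genes for running on vehicle (Srd5a1, Hsd17b13 and Srd5a3), 1 for running on OC (Srd5a1), 0 for running averaged over diet and 1 for the interaction (Srd5a1). The same unadjusted level was reached by 13.9%, 6.8%, 4.86% and 17.7% of all genes. DESeq2 called 1, 0, 0 and 1 of the 9 genes, in each case Srd5a1, and 41, 1, 2 and 58 genes in all. limma voom called 0 of the 9 and 0 of all genes in the 4 comparisons. For Hsd17b2 the running difference was 0.06 on vehicle (95% interval -0.20 to 0.32) and 0.09 on OC (-0.17 to 0.35).

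Ratios of counts within a library do not depend on the scaling between libraries, and 4 pairs were compared at each activity by an exact 2-sided permutation test over mice, with adjustment over the 8 tests. With 5 mice against 5 the smallest exact p is 0.00794, which adjusts to 0.0106 here. Hsd17b2 to Hsd17b6, a pair of oxidative enzymes, stood at 0.128 to 0.212 in sedentary vehicle and 1.10 to 9.04 in sedentary OC mice. The difference was 3.79 on the log2 scale in sedentary and 3.18 in running mice, where the ratios were 0.149 to 0.255 and 1.03 to 6.27 (exact permutation p = 0.00794 and adjusted p = 0.0106 for each). The ratio was higher in every OC mouse than in every vehicle mouse. At each activity Hsd17b2 was higher and Hsd17b6 lower in every OC mouse than in every vehicle mouse. Full separation of their ratio follows from that, so its p adds no further support. As the ratio is not divided by gene length, it does not say which of the 2 genes had more transcripts.

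Hsd17b2 to Hsd17b12, which sets an oxidising beside a reducing 17β-enzyme, was higher on OC by 1.20 in sedentary and 1.35 in running mice on the log2 scale. Srd5a1 to Srd5a3 was higher by 2.0 and 0.66. Each of these 4 differences reached the smallest p (exact permutation p = 0.00794, adjusted p = 0.0106), with no overlap of the groups. Hsd17b2 and Srd5a1 alone already separated the diets fully at each activity, and Hsd17b12 and Srd5a3 passed in no diet comparison. These ratios therefore largely restate the results of Hsd17b2 and Srd5a1 and are not separate support. For Srd5a1 to Srd5a3 in running mice the gap was very narrow, with a lowest OC ratio of 4.91 and a highest vehicle ratio of 4.89. Hsd17b13 to Hsd17b11 differed by -0.65 on the log2 scale in sedentary mice, lower on OC (exact permutation p = 0.0317, adjusted p = 0.0363), and by -0.34 in running mice (exact permutation p = 0.111, adjusted p = 0.111). The sedentary call was lost with each of the 10 libraries left out in turn except vehicle replicate 4 (adjusted p = 0.0544 to 0.0726 by the exact permutation test), and without vehicle replicate 2 the value was -0.40.

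**Figure D4:**
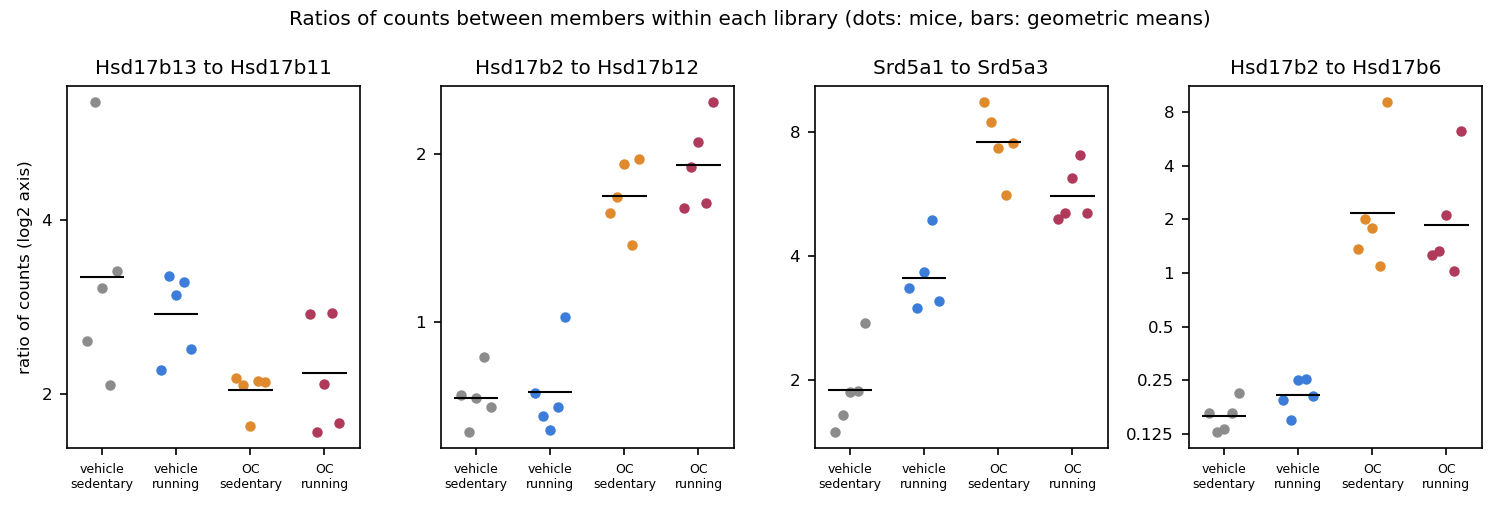
Each panel plots the ratio of counts of 2 genes in every mouse (dots) and the geometric mean of the group (bars) on a log2 axis. The ratio of Hsd17b2 to Hsd17b6 lies between 0.128 and 0.255 in the vehicle mice and between 1.03 and 9.04 in the OC mice.

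Other genes of these pathways were followed in 8 lists, for OC averaged over activity. The lists were chosen from knowledge of the field, but with earlier results of these data known. A call in this average need not hold at each activity alone. The counts of called genes in the lists stand against 11.9% higher and 11.0% lower among all genes tested. Because of how the lists were chosen, these shares give a scale and not a test. Of 27 other hydroxysteroid dehydrogenase genes 10 had intact lines and 6 were tested. Hsdl2, a peroxisomal relative, fell by 0.56 (SE 0.12, adjusted p = 0.00133), 0 rose, and the median of the 6 was -0.08 beside 0.00 for all genes. The 3β-dehydrogenase and aldo-keto reductase genes of that list were among those not used. Of 29 conjugation and hydroxylation genes only 2 had intact lines, Papss2 among them. Both were tested and neither passed, and the rest of that list was not measured here.

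Of 6 tested genes for steroid receptors and binding proteins 2 rose and 1 fell, with a median of 0.01. Esr1, the oestrogen receptor alpha gene, rose by 0.34 (SE 0.11, adjusted p = 0.033) and the progesterone-binding membrane protein gene Pgrmc1 by 0.23 (SE 0.07, adjusted p = 0.0298). Its relative Pgrmc2 fell by 0.28 (SE 0.09, adjusted p = 0.0222). None of these genes passed at both activities. Esr1 had 0.56 in sedentary mice (adjusted p = 0.0212) and 0.12 in running mice (adjusted p = 0.666). In the same order Pgrmc1 had 0.10 and 0.35 (adjusted p = 0.529 and 0.0306), and Pgrmc2 -0.10 and -0.47 (adjusted p = 0.605 and 0.0165). The number that rose was 0 to 3 over the alternatives, and without sedentary vehicle replicate 3 or running vehicle replicate 1 it was 0. It was 1 without any single running OC replicate, or without sedentary OC replicate 3, 4 or 5. The same held without sedentary vehicle replicate 1 or 2 or running vehicle replicate 2 or 4. Of 10 tested glucocorticoid targets and NADPH supply genes, which bear on the reaction of Hsd11b1, 1 rose and 0 fell. That gene was Tat, tyrosine aminotransferase (0.68, SE 0.14, adjusted p = 0.00125), while H6pd, which feeds NADPH to the enzyme, had 0.20 (adjusted p = 0.153).

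The fatty acid elongation list, drawn up around the reaction of Hsd17b12, held 14 genes, of which 7 had intact lines and were tested. These were dehydratase, desaturase and carboxylase genes, and no elongase gene was tested. Hacd2, the dehydratase of the next step, rose by 0.62 (SE 0.08, adjusted p = 9.11e-06) and the desaturase genes Fads2 and Fads1 fell by 0.81 and 0.38 (adjusted p = 0.000271 and 0.0224), as did Hacd3, which was named after its values were seen. Fads2 and Fads1 passed in running mice (adjusted p = 0.000911 and 0.0169) and not in sedentary mice (adjusted p = 0.0816 and 0.603). The median of the list was -0.21, and when scaled by library totals alone 1 gene fell. In the dolichol and N-glycan precursor list, around Srd5a3, 5 of 17 tested genes rose and 1 fell, with a median of 0.15. Dpagt1, which starts the dolichol-linked sugar chain, rose by 0.69 (SE 0.07, adjusted p = 4.8e-07) and Dad1 by 0.29 (SE 0.06, adjusted p = 0.00218), and Alg13 fell by 0.31 (SE 0.09, adjusted p = 0.0149). Dpm2 and Nus1, named after their values were seen, also rose. The number that rose was 10 when scaled by library totals alone, 8 without sedentary vehicle replicate 2 or running OC replicate 2, and 3 without sedentary OC replicate 1.

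The lipid droplet list, around Hsd17b11 and Hsd17b13, had 19 tested genes, of which 5 fell and 3 rose (median -0.21). G0s2, an inhibitor of droplet lipolysis, fell by 1.62 (SE 0.25, adjusted p = 7.75e-05) and Plin2, the main coat protein of liver droplets, by 0.88 (SE 0.17, adjusted p = 0.000864). Bscl2 and Abhd5, which act in droplet formation and lipolysis, rose by 0.37 and 0.30 (adjusted p = 0.000138 and 0.00482). The others that passed, named after their values were seen, were Pnpla3, Cidec and Plin1 (lower) and Aup1 (higher). The lower ones had low or uneven levels. In sedentary vehicle mice Pnpla3 had 7.20 ± 8.14 CPM, Cidec 9.76 ± 14.6 CPM and Plin1 1.21 ± 0.959 CPM (SD, n = 5). Without running vehicle replicate 5 or sedentary OC replicate 2 or 5 the number that fell was 3, and without running OC replicate 2 it was 9.

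Of 11 tested genes in the retinol dehydrogenase list, 3 fell and 0 rose, with a median of -0.13. The list mixed close relatives of Hsd17b6 with more distant dehydrogenase genes, such as Rdh10, Rdh11, Dhrs3 and Dhrs4. Rdh16f2 fell by 1.38 (SE 0.13, adjusted p = 2.04e-07) and Rdh16 by 1.34 (SE 0.18, adjusted p = 1.14e-05), and the third, named after its values were seen, was Rdh9. Rdh7 had -0.18 (adjusted p = 0.105). Rdh16f2, Rdh16, Rdh9 and Rdh7 are close relatives of Hsd17b6, so reads shared between copies could have been counted for either. No gene of the 8 lists passed in a running comparison or as an interaction in edgeR.

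**Figure D5:**
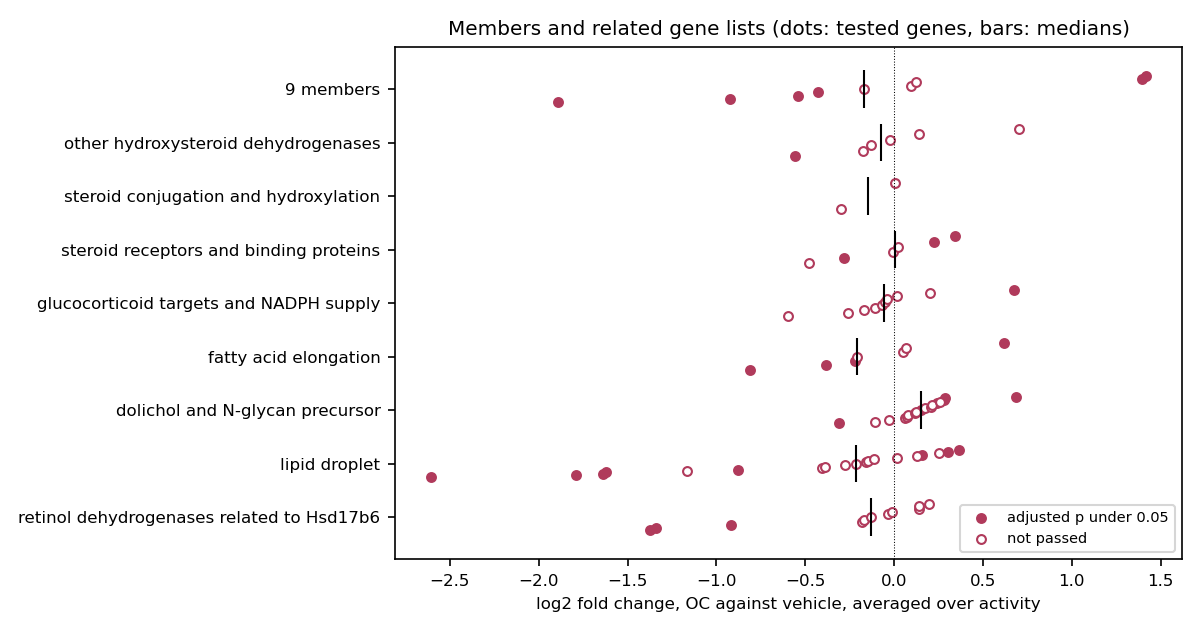
The horizontal axis gives the log2 fold change of OC against vehicle, averaged over activity, with a dot for each tested gene (filled where adjusted p was under 0.05) and a bar at the median of each list. The 9 enzymes of the top row run from -1.89 (Hsd17b6) to 1.42 (Srd5a1), and the lists below have medians between -0.21 and 0.15.

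Genes with the most similar profiles were sought among 7391 genes, by correlation of log2 CPM over the 20 libraries after subtraction of each group mean. These are descriptions of libraries that share depth and composition. Vwa8 was among the genes most like Hsd17b11 (r = 0.92), and Hsd17b13 was most like Unc119 (0.93) and Il17rb (0.88), or 0.86 and 0.75 without sedentary vehicle replicate 2. For Srd5a1 the closest were Fbxo7 (0.86) and the overlapping Nsun2 (0.81), and for Hsd17b2 they were Pex11g (0.88) and Abhd18 (0.78). Hsd17b12 lay closest to Ergic3 (0.86) and Nus1 (0.86), and Hsd17b6 to Pon3 (0.74) and Igfbp2 (0.69). Srd5a3 had Arsa (0.81) and Tpgs1 (0.79), or 0.72 and 0.68 without that replicate, and Srd5a2 had Atpaf1 (0.76) and Pef1 (0.75).

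Hsd11b1 had Mfsd4b1 (0.91) and Sirt3 (0.89) as the nearest, and without sedentary vehicle replicate 2 these correlations were 0.53 and 0.73. Between the 9 genes themselves the correlations ran from -0.54 (Hsd11b1 with Srd5a3) to 0.61 (Hsd17b12 with Srd5a1). Without that replicate Hsd11b1 with Srd5a3 was -0.19, and the range was -0.40 (Hsd17b6 with Srd5a2) to 0.65 (Hsd17b2 with Srd5a2 and Hsd17b13 with Hsd17b6). The value for Hsd11b1 with Hsd17b13 was -0.47 over 20 libraries and 0.48 over the 19 without that replicate. Hsd17b13 and Hsd17b11, the neighbours on chromosome 5, had -0.17 over 20 libraries and 0.19 over the 19.

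Markers checked the tissue, and some of the marker lists moved with the diet. The counts of called markers are for OC averaged over activity, where 11.9% of all genes tested were higher and 11.0% lower. Hepatocyte markers (6 of 10 intact) summed to 141932 to 196947 CPM in vehicle and 82132 to 122144 CPM in OC libraries, and 4 of the 6 fell averaged over activity. Periportal sums were 5805 to 10600.0 CPM in vehicle and 5154 to 6341 CPM in OC libraries (2 of 6 fell), and pericentral sums 1643 to 3930 and 2342 to 3360 CPM (1 of 7 fell). Stellate cell sums were 526 to 752 and 361 to 590.3 CPM (7 of 8 fell), and lymphocyte sums 5.49 to 14.7 and 3.51 to 7.58 CPM (4 of 5 fell). Endothelial sums were 266 to 402 and 238 to 405 CPM (0 of 8 passed). Macrophage sums were 255 to 439 and 305 to 467 CPM (1 of 7 rose), and cholangiocyte sums 45.6 to 138 and 68.2 to 183 CPM (of 7 tested, 1 rose and 1 fell). No intact marker was at 0 in every library, and the part of these shifts in the diet differences of the 9 genes was not tested.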

How the data were processed

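Stranded, paired-end libraries were made from liver RNA of 20 mice, per the labels' protocols. The genome build mm10 and the tools STAR, R 4.05 and limma are listed, per the submitters' processing notes, and the counting program, annotation and strand setting are not given in the sources used here. From their values, the deposited numbers were taken to be estimated counts (the unit called expected counts), with no scaling across samples. The planned design had assumed counts, and rounding to whole numbers changed no value used. Levels in CPM are linear, and the log2 fold changes were computed from the deposited counts.

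Of 35504 genes, 23993 (67.58%) had an intact line, and the other 11511 (32.42%), whose values were displaced or doubtful, were left out. The tests were run in edgeR 4.0.16 (R 4.3.3) after filterByExpr, with TMM scaling (factors 0.90 to 1.06 in vehicle and 0.99 to 1.11 in OC libraries) and 1 quasi-likelihood model of all 4 groups (biological coefficient of variation 0.178). The 10207 tested genes held 99.95% of the counts. The 7 contrasts were adjusted by Benjamini-Hochberg. Ratios had 0.5 counts added. Exon lengths and positions are from GENCODE vM21 on GRCm38. Alternatives were RLE scaling, library totals alone, no low-count filter, DESeq2 1.42.0, limma 3.58.1 voom, fits of only the groups compared and leaving out each library. Correlations without 1 library were added after the data were seen.

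The 9 genes and the lists were chosen with earlier results of these data known. All 9 genes are named, with up to 2 called genes per list and direction by smallest adjusted p. The steps were tested on simulated data. A few genes that these rules would name are not reported here.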

Additional observations from a re-analysis of the deposited data

Results flagged for a closer look

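Within groups of 5 mice, a library was picked out where its gap to the nearest other mouse took up more of the group's range than Dixon's 95% critical value allows. This held in 4 of 36 sets of gene and group, and chance picks out about 1 in 20. Sedentary vehicle replicate 2 was high for Hsd17b13, at 1204 CPM against 602 to 763 CPM in the other 4 mice, and for Srd5a3, at 13.8 CPM against 10.2 to 11.2 CPM. Running OC replicate 3 was high for Srd5a1, at 77.6 CPM against 54.3 to 59.3 CPM. Running OC replicate 5 was low for Hsd11b1, at 858 CPM against 1018 to 1054 CPM.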

How the results depend on the processing

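Over 26 alternative settings, 1594 of 1611 fold changes of the 9 genes kept their direction where called and their side of the threshold, 7 lost and 10 gained a call, and 0 called values changed sign. DESeq2 called 1 of the 9 genes for running on the vehicle diet and 1 for the interaction, where edgeR called 0. Leaving out each library in turn, the number called was 4 to 6 for OC in sedentary mice, 4 to 6 in running mice and 6 to 7 averaged over activity. The log2 difference in the ratio of Hsd17b13 to Hsd17b11 in sedentary mice ran from -0.80 to -0.40, and with 9 of the 10 libraries left out in turn its adjusted p was 0.0544 to 0.0726; with 4 mice against 5 the smallest exact permutation p is 0.0159. Over all genes, OC in sedentary mice called 998 genes without OC replicate 1, against 1665, and OC in running mice called 817 and 835 without OC replicates 1 and 3, against 1343. The cause of these shifts, other than fewer samples, was not tested. No paired analysis was possible because the labels carry no replicate numbers shared between groups. Depth limits Srd5a2 most, at 17 to 56 counts per library.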
